A study of Homo sapiens with 8 samples.

Results

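The small rRNAs 5S and 5.8S are 2 of the 55 RNA families that carried crosslink counts in this study, the others being 50 tRNA families and the 18S, 28S and 45S spacer families. They were chosen by name and position: 5S is the whole RNA5S1 reference, and 5.8S is the stretch of the 45S pre-rRNA reference that the RefSeq annotation of GRCh38.p14 gives to RNA5-8SN1. RNA5S1 lies on chromosome 1 at 228610266 to 228610386 on the minus strand and is 121 nt long. RNA5-8SN1 lies on chromosome 21 at 8439822 to 8439978, which is 157 nt and corresponds to positions 6601 to 6757 of the 45S reference. Both are non-coding rRNA genes of families with many near-identical copies in the genome, so each count stands for the RNA family and cannot be assigned to 1 copy. Positions below start with 1 at the mature RNA's 5′ end.

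The data are 8 iCLIP libraries. Flp-In T-Rex 293 cells, human embryonic kidney cells kept as an established line, were modified to express 3xFLAG-DUS1L or 3xFLAG-DUS2L, so that every library comes from cells with an added, tagged enzyme and none from unmodified cells. All cells received 1 µg/mL tetracycline for 12 h and then fresh medium with tetracycline, either alone (untreated) or with 100 µM 5-chlorouridine (5-ClUrd). The protocol ends with 12 h in this second medium, and the treatment labels state that time for the 5-ClUrd libraries only. The 4 groups, DUS1L untreated, DUS1L 5-ClUrd, DUS2L untreated and DUS2L 5-ClUrd, had 2 libraries each, called biological replicates by the series. iCLIP joins a protein to RNA in the cell, purifies the protein and reads where reverse transcription ended, which places each contact at a single nucleotide.

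5S rRNA is made by RNA polymerase III from genes outside the nucleolar rDNA arrays and joins the large ribosomal subunit with the ribosomal proteins RPL5 and RPL11. 5.8S rRNA is made by RNA polymerase I as part of the 45S precursor, in which it lies between the internal transcribed spacers ITS1 and ITS2, and is base paired with 28S rRNA in the mature large subunit. DUS1L and DUS2L belong to the enzymes that convert uridine to dihydrouridine, a modification best known from tRNA. 5-ClUrd is a uridine analogue with a chlorine on the double bond that these enzymes reduce.

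Libraries held between 7369 and 824657 sense counts, and the lowest was untreated DUS1L library 2, with only 36 rRNA counts. rRNA made up 0.489% to 1.32% of the sense counts in the 4 DUS1L libraries. In DUS2L, rRNA made up 19.4% and 13.6% of the counts in the untreated libraries against 2.60% and 4.38% in the 5-ClUrd libraries, so a change in 5S or 5.8S moves within a change of all rRNA. By their names, the site files of DUS2L alone were premapped to non-coding RNAs, so the enzyme and the making of the files cannot be told apart in any comparison between enzymes. A share of counts also cannot tell a change in contact from a change in the amount of the RNA.

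5S rRNA carried more counts in the DUS2L libraries than in the DUS1L libraries. It had 11 and 0 counts in the untreated DUS1L libraries, 130 and 23 in the DUS1L 5-ClUrd libraries, 195 and 180 in the untreated DUS2L libraries, and 252 and 299 in the DUS2L 5-ClUrd libraries. As a share of a library's sense counts, 5S made up 0.00762% and 0% in untreated DUS1L, and the 0 allows a share of up to 0.0407% (3 counts of the total). The shares were 0.0158% and 0.00424% in DUS1L with 5-ClUrd, 0.150% and 0.105% in untreated DUS2L, and 0.0679% and 0.0824% in DUS2L with 5-ClUrd. The lowest DUS2L share lay above the highest DUS1L share, and the upper limit of the library without a count lay below the lowest DUS2L share too. The exact 95% binomial interval for the highest DUS1L share ran from 0.0132% to 0.0187%, and that for the lowest DUS2L share from 0.0598% to 0.0769%. Intervals here cover counting error only.

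5.8S rRNA was counted less often than 5S in the DUS2L libraries, and it stood higher in untreated DUS2L than elsewhere. Its counts were 7 and 1 in untreated DUS1L, 77 and 52 in DUS1L with 5-ClUrd, 69 and 119 in untreated DUS2L, and 30 and 81 in DUS2L with 5-ClUrd. Its shares of the sense counts were 0.00485% and 0.0136% in untreated DUS1L and 0.00934% and 0.00958% in DUS1L with 5-ClUrd. They were 0.0531% and 0.0692% in untreated DUS2L and 0.00809% and 0.0223% in DUS2L with 5-ClUrd. Both untreated DUS2L libraries lay above the other 6 libraries, among which the groups overlapped. The 0.0136% of untreated DUS1L library 2 rests on 1 count, with an interval from 0.000344% to 0.0756%.

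**Figure D1:**
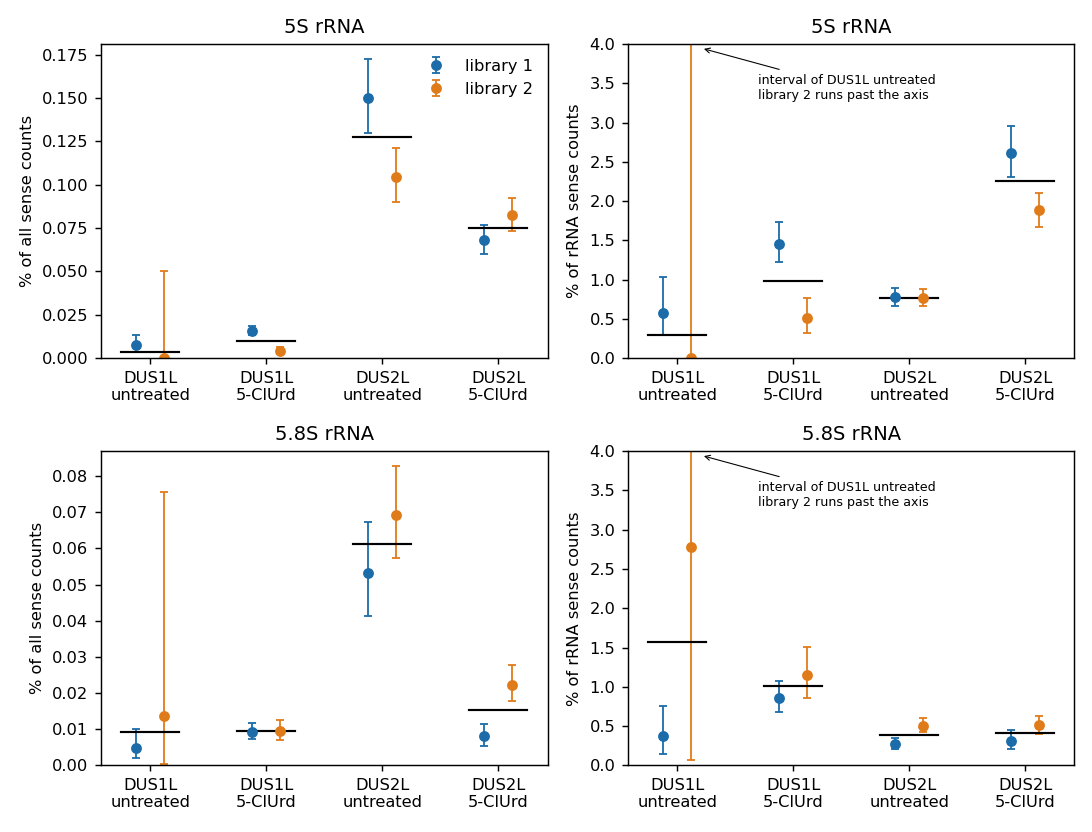
Counts of 5S (top) and 5.8S (bottom) in each of the 8 libraries, as a percent of the library's sense counts (left) and of its rRNA counts (right); points are libraries and bars are exact 95% binomial intervals, and horizontal lines are group means. On the left, 5S stands at 0.0679% to 0.150% in DUS2L and at 0% to 0.0158% in DUS1L; on the right, DUS2L with 5-ClUrd stands highest for 5S, at 2.62% and 1.88%, and the interval of untreated DUS1L library 2 runs past the axis.

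Both RNAs were minor among the 55 families. Ranked by counts within a library, 5S stood at place 41 to 52 and 5.8S at place 38 to 54. Per nucleotide, which allows RNAs of unequal length to be compared, 5S stood at 12.4 and 8.64 counts per nt per 1000000 sense counts of the library (CPM per nt) in untreated DUS2L, against 18.6 and 13.1 for 18S rRNA and 28.5 and 19.9 for 28S rRNA. In the DUS2L 5-ClUrd libraries the order was different, with 5S at 5.62 and 6.81, 18S at 2.53 and 3.86, and 28S at 3.53 and 5.94 CPM per nt. 5.8S stood below 18S and 28S on this scale in all 4 DUS2L libraries, at 3.38 and 4.40 in the untreated and 0.515 and 1.42 in the 5-ClUrd libraries. The spacers beside it in the precursor stood at 1.07 and 0.809 (ITS1) and 5.66 and 4.84 (ITS2) in untreated DUS2L, and at 0.328 and 0.788 (ITS1) and 0.524 and 0.963 (ITS2) with 5-ClUrd. 5.8S lay between its 2 spacers in untreated DUS2L, and with 5-ClUrd it lay just below ITS2 in library 1 and above it in library 2. In DUS1L with 5-ClUrd the density was 1.30 and 0.350 for 5S and 0.595 and 0.611 for 5.8S, next to 1.54 and 0.590 for 18S and 1.03 and 0.981 for 28S.

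The first question of the design is what 5-ClUrd changes in DUS2L cells. 5.8S fell by 2.01 on the log2 scale (SE 0.72, n = 2 against 2), with an adjusted p of 0.0386 in edgeR's quasi-likelihood test over all families. 5S was 0.76 lower on that scale (SE 0.35) and did not pass the threshold of 0.05, with edgeR's adjusted p at 0.0870. The other rRNAs passed it: 18S fell by 2.31, 28S by 2.35 and the 45S spacers by 1.42, with edgeR's adjusted p at 0.000496, 0.000589 and 0.0112. Of all 55 families, 13 were called lower, which is 23.6%, so 4 of the 5 rRNA families stood among them.

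5.8S stayed lower without each of the 4 libraries, between -2.92 and -1.46. Leaving out either untreated DUS2L library ended the call, with values of -2.18 and -1.80 and edgeR's adjusted p at 0.202 and 0.393, whereas it was kept without either 5-ClUrd library, with edgeR's adjusted p at 0.00581 and 2.99e-05. The scaling also matters: the median log2 change of all 55 families was 0.86 with total counts as the scale, 0.21 with TMM factors, 0.11 with DESeq2's size factors and 3.12 when scaled to total rRNA counts. Relative to that median, 5.8S stood at -2.87, -2.86, -2.86 and -3.03 under the same 4 scales, and 5S at -1.62, -1.62, -1.62 and -1.57. A change of scale moves all families by nearly the same amount, so these values are alike by construction. Their likeness is not support for either change. 5S itself passed the threshold with TMM factors, at -1.42 with edgeR's adjusted p at 0.00299, and with DESeq2's size factors, at -1.52 with edgeR's adjusted p at 0.00188.

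Among rRNA counts alone, 5S had a larger share with 5-ClUrd in both DUS2L libraries, and 5.8S did not. 5S made up 0.775% and 0.767% of the rRNA counts in untreated DUS2L and 2.62% and 1.88% with 5-ClUrd, a mean of 0.771% ± 0.00547 against 2.25% ± 0.521 (SD, n = 2 each). The groups did not overlap, and the exact two-sided permutation test gave p = 0.333, the smallest that 2 against 2 libraries allow. The difference was 1.48 points, and 0.855 points with each site counted once. With rRNA counts as the scale, the 5S change reversed to 1.54 on the log2 scale, with edgeR's adjusted p at 0.0237, and that of 5.8S turned to 0.083, with edgeR's adjusted p at 0.917. 5.8S made up 0.274% and 0.507% of the rRNA counts in untreated DUS2L and 0.312% and 0.510% with 5-ClUrd, and these groups overlapped (difference 0.0200 points, exact permutation p = 0.667). In DUS1L the mean 5S share of the rRNA counts was also higher with 5-ClUrd, at 0.983% against 0.289%. Those groups overlapped (exact permutation p = 0.667).

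Set against each other, 5S had 2.83 and 1.51 counts per 5.8S count in the untreated DUS2L libraries and 8.4 and 3.69 with 5-ClUrd. The groups did not overlap. The log2 ratio was 1.43 higher with 5-ClUrd, again at the smallest possible exact permutation p of 0.333. This ratio was added after the data were seen.

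Since 5S shares RNA polymerase III with tRNA, it was set beside the 50 tRNA families. In DUS2L, 29 of 50 tRNA families were called higher with 5-ClUrd and 9 lower, with a median log2 change of 0.92, against 0.86 over all 55 families. The change of 5S stood at place 44 of 55 from the highest, below 43 tRNA families. 5.8S stood at place 52 of 55, and 1 tRNA family lay below it. By the correlation of log2 CPM (with a prior count of 2) over the 8 libraries, a description over libraries that share groups and depth, the families most like 5S were tRNA-Leu-CAA (Pearson's r = 0.959), tRNA-Glu-CTC (0.946) and tRNA-Glu-TTC (0.943). Those most like 5.8S were 28S (0.839), 18S (0.808) and tRNA-His-GTG (0.754).

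In DUS1L cells neither RNA passed the test. 5S differed by 0.61 (SE 1.04) and 5.8S by 0.65 (SE 0.85) on the log2 scale between 5-ClUrd and untreated libraries, with edgeR's adjusted p at 0.667 and 0.568. Of the 53 families tested, 13 were called in either direction, which is 24.5%. The signs are not settled, since both turn negative with TMM factors (-0.43 for 5S and -0.42 for 5.8S) and with DESeq2's size factors (-0.77 and -0.71). The untreated side holds 11 counts of 5S and 8 of 5.8S in all. Of the 48 tRNA families tested in DUS1L, 12 were called higher and 1 lower, and 33 had a higher log2 change than 5S.

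The difference between the 5-ClUrd effects of the enzymes, DUS2L minus DUS1L, was -1.33 (SE 1.05) for 5S and -2.72 (SE 1.06) for 5.8S on the log2 scale. Neither passed the threshold, with edgeR's adjusted p at 0.308 and 0.0841, while 16 of 55 families did (29.1%). Scaled to rRNA counts, the 5S difference turned to 0.68. The 5.8S difference passed with TMM factors, at -3.48 and edgeR's adjusted p of 0.0335, and with DESeq2's size factors, at -3.02 and edgeR's adjusted p of 0.0465.

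Between the enzymes with 5-ClUrd present, 5S passed the test and 5.8S did not, and the difference between the 2 RNAs was not tested. 5S was 2.89 higher (SE 0.67) on the log2 scale in DUS2L than in DUS1L, with edgeR's adjusted p at 0.00616. It was called without each of the 8 libraries in turn, at values between 2.25 and 4.13. 5.8S was 0.68 higher (SE 0.61), with edgeR's adjusted p at 0.337, and turned to -1.28 when scaled to rRNA counts. Without DUS2L 5-ClUrd library 1 it passed, at 1.23 with edgeR's adjusted p at 0.0469, and without library 2 it turned to -0.22. 28S, at 2.23, and 18S, at 1.58, passed with edgeR's adjusted p at 0.00245 and 0.0456. Of the 55 families, 21 were called higher in DUS2L, which is 38.2%. Scaled to rRNA counts, 5S was still 1.18 higher but did not pass, with edgeR's adjusted p at 0.110.

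In untreated cells both small rRNAs were higher in DUS2L, by 4.22 (SE 0.88) for 5S and 3.40 (SE 0.87) for 5.8S on the log2 scale. edgeR's adjusted p was 0.00262 and 0.00646. This share of calls is common in the comparison, since 26 of 55 families (47.3%) were called higher, the median change of all families was 2.45, and all 5 rRNA families were among those called. Scaled to rRNA counts, neither small rRNA passed: 5S stood at 0.50 with edgeR's adjusted p at 0.623, and 5.8S turned to -0.35 with 0.887. The call for 5.8S was lost without untreated DUS1L library 1, at 2.17 with edgeR's adjusted p at 0.264, which left 1 count on the DUS1L side.

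**Figure D2:**
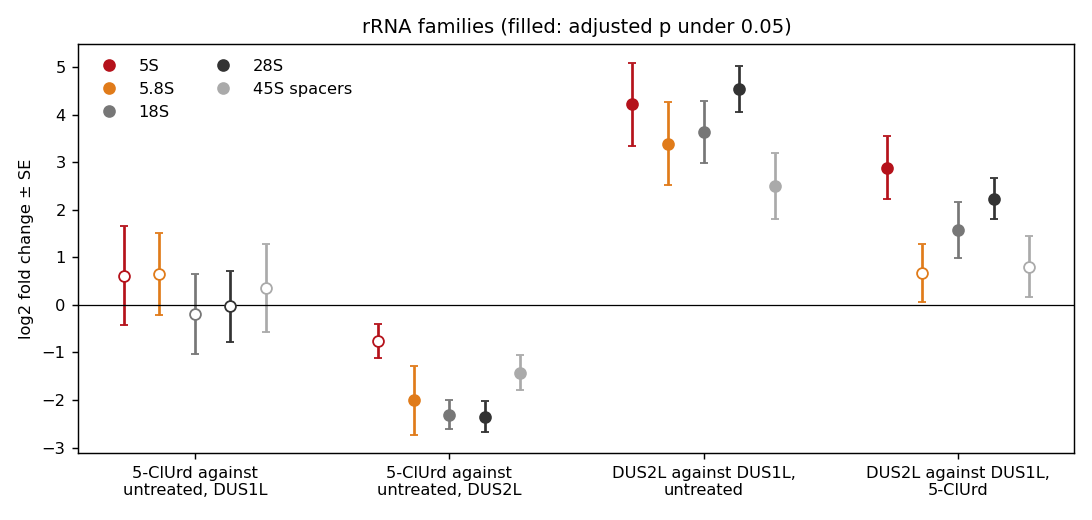
Log2 fold changes of the 5 rRNA families with their standard errors in 4 comparisons, from edgeR fits scaled to total sense counts; filled points passed the adjusted p threshold of 0.05. In the second comparison 5S stands at -0.76 and open, above 5.8S, 18S and 28S at -2.01 to -2.35, and in the last 5S stands highest at 2.89.

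Along 5S, counts lay on 89 of 121 positions, and none lay after position 109. A single position held at most 47 counts in a library. The 3′ end was almost empty: positions 100 to 121 held 5 counts in DUS1L 5-ClUrd library 1, 2 in untreated DUS2L library 2, 2 in DUS2L 5-ClUrd library 2, and 0 in the other 5 libraries. This does not show a lack of contact, since whether contacts so close to the end of the reference can be counted was not tested. 14 positions were counted in all 4 DUS2L libraries (2, 22, 39, 44, 52, 54, 55, 56, 61, 65, 75, 80, 81 and 83), and 4 positions were counted in at least 6 of the 8 libraries (37, 52, 55 and 56).

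The stretch from position 49 to 56, delimited after its values were seen, held much of the signal of both enzymes. It carried 3 and 0 counts in untreated DUS1L, 79 and 9 in DUS1L with 5-ClUrd, 56 and 68 in untreated DUS2L, and 97 and 76 in DUS2L with 5-ClUrd. This was 60.8% and 39.1% of the 5S counts in DUS1L with 5-ClUrd, 28.7% and 37.8% in untreated DUS2L and 38.5% and 25.4% in DUS2L with 5-ClUrd. Between 25.4% and 60.8% of the RNA's counts thus lay on 8 of its 121 positions in these 6 libraries.

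Within that stretch, windows of adjacent nucleotides were described separately. They were delimited after the values were seen, to show where these libraries differ, so their contrast is a description. With 5-ClUrd, positions 52 and 53 together held 56 and 5 counts in DUS1L, which was 43.1% and 21.7% of its 5S counts, and 9 and 8 counts in DUS2L, which was 3.57% and 2.68%. Positions 54 to 56 held 6 and 3 counts in DUS1L (4.62% and 13.0%) and 84 and 60 in DUS2L (33.3% and 20.1%). After 52 and 53, the highest mean shares in DUS1L with 5-ClUrd were at 2 (10.9%), 50 (6.02%) and 55 (5.12%), and in DUS2L with 5-ClUrd 37 (6.96%) and 56 (6.14%) followed 2, 55 and 54. In untreated DUS1L, no position of 5S or 5.8S held more than 2 counts. The untreated DUS2L libraries differed from each other, with 14 counts at positions 54 to 56 in library 1 (7.18%) and 53 in library 2 (29.4%). Positions 52 and 53 then held 15 counts in library 1 (7.69%) and 1 in library 2 (0.556%).

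**Figure D3:**
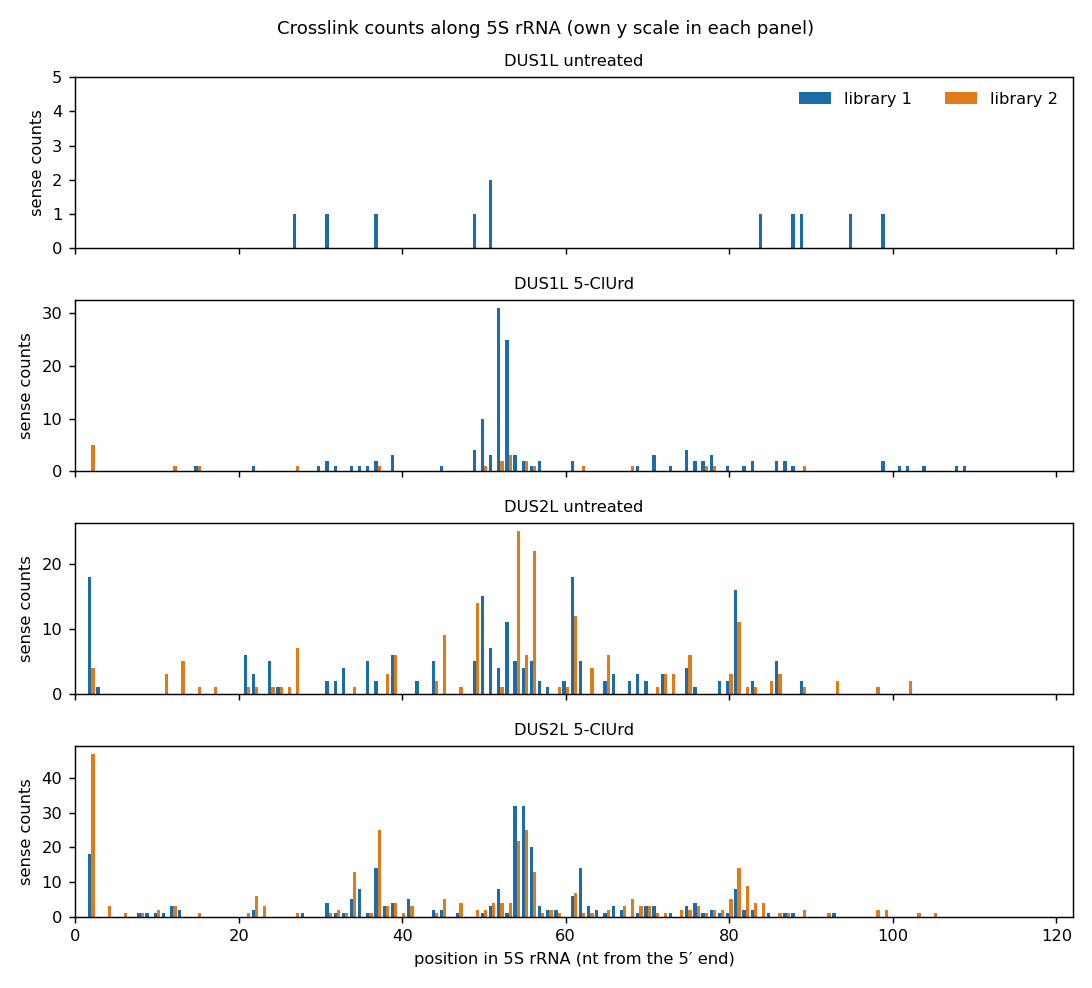
Sense counts at each position of 5S (horizontal axis, nt from the 5′ end), by group and library, with an own vertical scale in each panel. The percents given here are shares of the RNA's own sense counts and are not the plotted heights. With 5-ClUrd, the mean share in DUS1L is highest at positions 52 and 53 (16.3% and 16.1%), where library 1 peaks, whereas library 2 is highest at position 2 (21.7%, 5 of 23 counts); in DUS2L the mean is highest at positions 2, 55 and 54 (11.4%, 10.5% and 10.0%).

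Tested position by position over all sites of all RNAs, 10 of the 27 tested 5S positions were higher in DUS2L than in DUS1L among the 5-ClUrd libraries, and 0 were lower by edgeR's quasi-likelihood test. At an unadjusted p under 0.05 the counts were 12 higher and 0 lower. Over all 7873 tested sites, 1824 (23.2%) were higher and 2298 (29.2%) lower. The median log2 difference of the 27 positions was 3.19, and 23 were positive. Sites were tested if they reached 10 counts over the libraries of the fit, and position 81, for example, reached them in DUS2L alone. The direction of these positions is thus partly set by that filter and by the higher 5S level in DUS2L. It is not separate support for that level. The 10 positions were 2, 34, 37, 54, 55, 56, 61, 62, 81 and 82.

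Position 55 held 2 and 2 counts in DUS1L and 32 and 25 in DUS2L, a pooled ratio per sense count of 26.6 (exact 95% counting interval 9.82 to 101), with edgeR's adjusted p at 0.000754. Position 54 held 3 and 0 against 32 and 22, a ratio of 33.5 (interval 10.9 to 168, edgeR's adjusted p 0.000337). Position 2 held 0 and 5 against 18 and 47, a ratio of 24.2 (interval 9.86 to 77.1, edgeR's adjusted p 0.000964). In each case the DUS2L libraries were both above both DUS1L libraries.

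Position 81 held no count in DUS1L and 8 and 14 in DUS2L, at least 13.7-fold higher when the 0 is set to 3 counts over the group, with edgeR's adjusted p at 0.000295. It alone of the 10 was called without each library in turn. Position 37 held 2 and 1 counts in DUS1L against 14 and 25 in DUS2L, a ratio of 24.2 (interval 7.70 to 122.5, edgeR's adjusted p 0.00230). Position 56 held 1 and 1 against 20 and 13 (ratio 30.7, interval 7.86 to 264, edgeR's adjusted p 0.00131). The remaining 4 positions, 34, 61, 62 and 82, held 11 to 18 counts over the DUS2L libraries and 1 or 2 over the DUS1L libraries, and each lost its call in at least 2 of the fits that left out a library. Position 37 lost its call without either DUS1L 5-ClUrd library, with edgeR's adjusted p at 0.0633 and 0.0695. Positions 2, 55 and 56 lost theirs without DUS1L 5-ClUrd library 1, with edgeR's adjusted p at 0.122, 0.0503 and 0.0651, and position 54 without library 2, with edgeR's adjusted p at 0.0594.

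Positions 52 and 53 did not pass the same test. Position 52 held 31 and 2 counts in DUS1L and 8 and 4 in DUS2L, with edgeR's adjusted p at 0.805, and position 53 held 25 and 3 against 1 and 4, with edgeR's adjusted p at 0.338. Both DUS1L values come mainly from library 1, which held 130 of the 153 5S counts of its group. Leaving out either DUS1L 5-ClUrd library lowered the number of called 5S positions from 10 to 2 and 4.

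With 5-ClUrd against untreated in DUS2L, 22 positions of 5S were tested and 1 was called: position 49 fell, from 5 and 14 counts to 0 and 2. This is a pooled ratio of 0.0433 (interval 0.00489 to 0.180), with edgeR's adjusted p at 0.0277. Over all 5140 tested sites, 875 (17%) were lower and 764 (14.9%) higher. No 5S position held more than 47 counts in a library, whereas single sites of all RNAs held up to 1436 in DUS2L 5-ClUrd library 2. The calls are thus not compared at equal counts, and 1 lower and 0 higher of 22 does not show that 5S changed less. By edgeR, 3 lower positions and no higher one had an unadjusted p under 0.05. The median change of the 22 positions was -1.18, and 6 were positive. Positions 49 and 50 reached the 10 counts needed for a test through the untreated libraries, and 34 and 37 through the 5-ClUrd libraries. That filter thus enters the direction of these positions.

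Position 49 was not called with TMM factors, with the replicate number in the model, or without untreated library 1 or 5-ClUrd library 1. Its neighbour at position 50 (15 and 0 counts to 1 and 2) had edgeR's adjusted p at 0.0535. The window from 49 to 51 went from 13.8% and 7.78% of the 5S counts to 1.59% and 2.68%. The window from 54 to 56, next to it, held 7.18% and 29.4% without and 33.3% and 20.1% with 5-ClUrd, and those groups overlapped. Position 55 went from 4 and 6 counts to 32 and 25, with edgeR's adjusted p at 0.426, and position 37 from 2 and 0 to 14 and 25, with edgeR's adjusted p at 0.130. The window from 34 to 39 held 6.67% and 5.56% without and 13.9% and 15.4% with 5-ClUrd, and was delimited after its values were seen. The position of highest mean share in untreated DUS2L was 54 (8.23%), followed by 61 (7.95%), 56 (7.39%), 81 (7.16%) and 2 (5.73%).

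In DUS1L, 3 positions of 5S reached the 10 counts needed, and none was called by edgeR. Position 52 was the only one with an unadjusted p under 0.05. It held 0 and 0 counts in untreated and 31 and 2 in 5-ClUrd libraries, with edgeR's adjusted p at 0.0886. Over all 4715 tested sites, 1604 (34%) were called in either direction. With the replicate number in the model, or without DUS1L 5-ClUrd library 2, 2 of the positions were called.

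Along 5.8S, counts lay on 97 of 157 positions and the last was position 154. A single position held at most 15 counts in a library. Only positions 61, 99 and 125 were counted in all 4 DUS2L libraries, and position 125 was the one counted in at least 6 of the 8 libraries. Divided by length into 5′ (positions 1 to 52), middle (53 to 105) and 3′ (106 to 157) segments, the RNA held its counts in different places in different groups.

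The middle segment of 5.8S held 71.0% and 71.4% of the RNA's counts in untreated DUS2L and 26.7% and 24.7% with 5-ClUrd. This was 49 of 69 and 85 of 119 counts without and 8 of 30 and 20 of 81 with 5-ClUrd. The exact binomial intervals were 58.8% to 81.3% and 62.4% to 79.3% without, and 12.3% to 45.9% and 15.8% to 35.5% with 5-ClUrd. The means were 71.2% ± 0.293 and 25.7% ± 1.40 (SD, n = 2 each). Such SDs are smaller than the counting error in these intervals, so they overstate the precision. The difference of -45.5 points had an exact permutation p of 0.333, the smallest possible here. It lay between -46.5 and -44.6 points without each library in turn. With each site counted once, whatever its count, it was -24.1 points. The 5′ segment held 11.6% and 16.0% without and 50.0% and 30.9% with 5-ClUrd (26.7 points higher, exact permutation p = 0.333). The 3′ segment held 17.4% and 12.6% without and 23.3% and 44.4% with 5-ClUrd (18.9 points higher, exact permutation p = 0.333, and 4.80 points with each site counted once). By share, none of the 3 segments overlapped between the groups. The intervals of the middle segment did not overlap either, whereas those of the 5′ and 3′ segments did. For the 5′ segment, untreated library 2 had 9.90% to 23.8% and 5-ClUrd library 2 had 21.1% to 42.1%. For the 3′ segment, untreated library 1 had 9.32% to 28.4% and 5-ClUrd library 1 had 9.93% to 42.3%. These shares do not depend on how libraries are scaled to each other. Together the 3 segments make up the whole RNA, so a lower share of the middle goes with a higher share elsewhere. They are thus not 3 separate results.

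**Figure D4:**
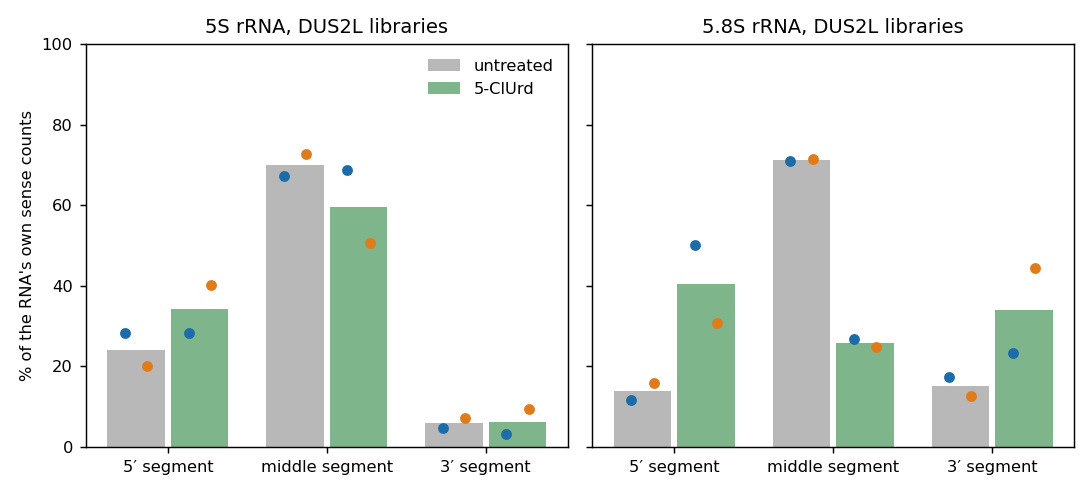
Share of each RNA's own counts in its 5′, middle and 3′ segments in the DUS2L libraries; bars are group means and points are the 2 libraries of each group (blue, library 1; orange, library 2). The middle segment of 5.8S stands at 71.0% and 71.4% without and 26.7% and 24.7% with 5-ClUrd, whereas the groups overlap in each segment of 5S.

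The 5S segments overlapped between the groups. Its middle segment (positions 41 to 81) held 67.2% and 72.8% of its counts in untreated DUS2L and 68.7% and 50.5% with 5-ClUrd (difference -10.4 points, exact permutation p = 0.667). Its 5′ segment (1 to 40) held 28.2% and 20% against 28.2% and 40.1% (difference 10.1 points, exact permutation p = 0.667). Its 3′ segment held between 3.2% and 9.4% in the 4 libraries (exact permutation p = 1).

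In DUS1L with 5-ClUrd, 5.8S was counted mainly in its 3′ segment, at 50.6% and 55.8%, and its 5′ segment, at 35.1% and 32.7%, with 14.3% and 11.5% in the middle. The untreated DUS1L libraries, with 7 counts and 1 count, do not bear a profile. The middle segment of the DUS1L 5-ClUrd libraries lay below that of both DUS2L groups, and its 3′ segment above them. This difference between enzymes was not tested.

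By position, the untreated DUS2L counts of 5.8S were highest at 96 (11.6% on average), 73 (6.30%), 43 (5.42%), 72 (4.88%) and 99 (4.88%). Position 96 held 9 and 12 counts without and 0 and 1 with 5-ClUrd, a pooled ratio of 0.0196 (interval 0.000474 to 0.122), with edgeR's adjusted p at 0.0108. Position 43 held 4 and 6 counts without and none with 5-ClUrd, at least 8.10-fold lower with 3 counts over the group in place of 0, with edgeR's adjusted p at 0.0213. These 2 of the 7 tested positions were called lower and 0 higher, beside the 17% and 14.9% of all sites given above. By edgeR, 3 lower and no higher positions had an unadjusted p under 0.05, the median change was -2.24 and 1 was positive. Positions 96, 43 and 73 reached the 10 counts needed for a test through the untreated libraries, and 124 through the 5-ClUrd libraries. The direction of these positions is thus partly set by that filter. Neither of the called positions passed with TMM factors. Position 96 also lost its call without untreated library 1, untreated library 2 or 5-ClUrd library 1, and position 43 without either 5-ClUrd library or with the replicate number in the model.

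Wider stretches, delimited after their values were seen, held shares that did not overlap between the groups. How many other stretches separate the groups in the same way was not counted, so this separation is a description and was not tested. Positions 96 to 99 held 21.7% and 16.0% of the 5.8S counts without and 10% and 3.70% with 5-ClUrd. With 5-ClUrd this is 3 and 3 counts, against 15 and 19 without. Positions 69 to 79 held 17.4% and 31.1% without and 13.3% and 9.88% with 5-ClUrd, on 12 and 37 against 4 and 8 counts. Positions 1 to 18 held 5.8% and 5.88% without and 43.3% and 28.4% with 5-ClUrd, which is 4 and 7 counts against 13 and 23. Position 1 alone had a mean share of 8.70% with 5-ClUrd, followed by 16 (6.85%), 125 (6.42%), 124 (6.17%) and 126 (5.8%).

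**Figure D5:**
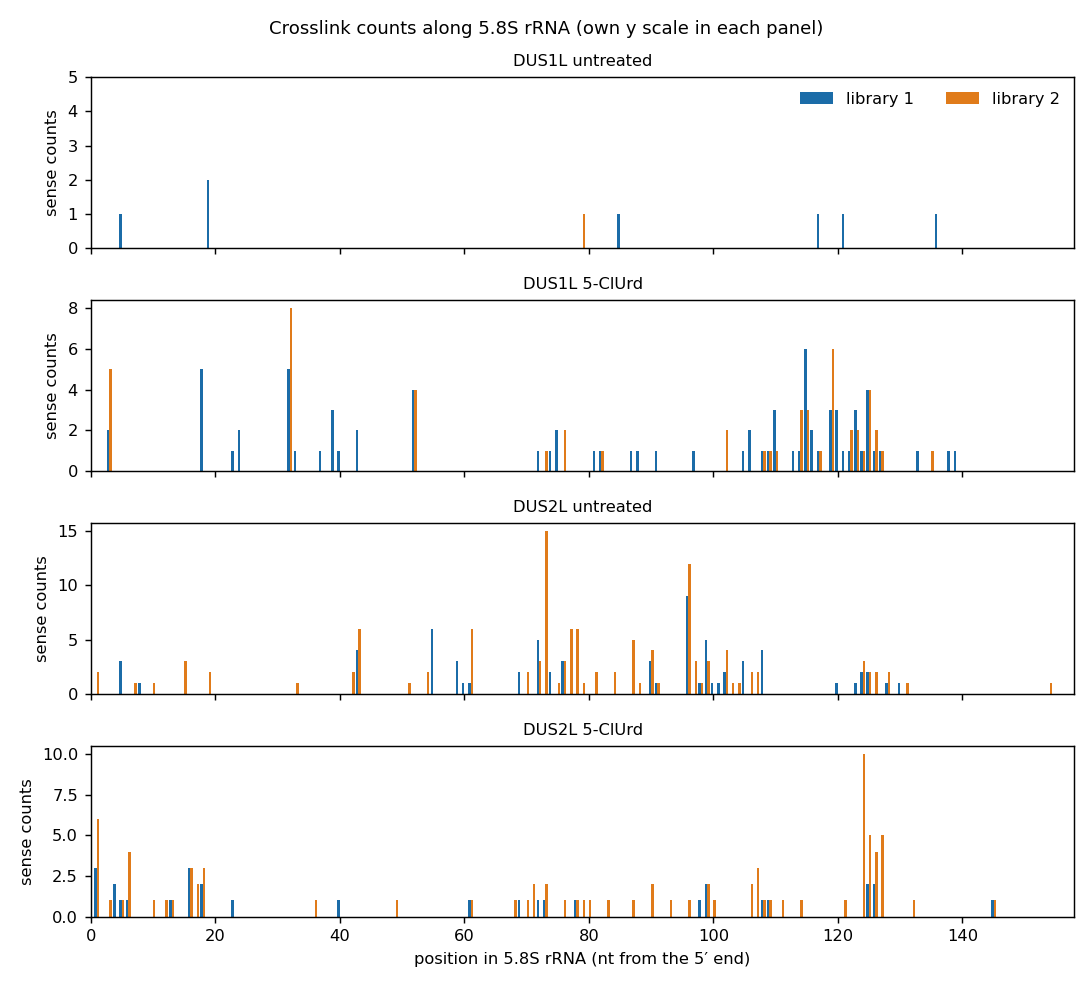
Sense counts at each position of 5.8S (horizontal axis, nt from the 5′ end), by group and library, with an own vertical scale in each panel. The percents given here are shares of the RNA's own sense counts and are not the plotted heights. Untreated DUS2L counts gather between positions 69 and 99, whereas positions 108 to 127 hold 44.2% and 53.8% in DUS1L with 5-ClUrd and 20% and 35.8% in DUS2L with 5-ClUrd.

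Between the enzymes with 5-ClUrd, 11 positions of 5.8S were tested, of which 1 was higher in DUS2L and 1 lower, beside the 23.2% and 29.2% of all sites. Position 1 held no count in DUS1L and 3 and 6 in DUS2L, at least 5.59-fold higher, with edgeR's adjusted p at 0.0114. Position 32 held 5 and 8 counts in DUS1L and none in DUS2L, at least 2.33-fold lower, with edgeR's adjusted p at 0.0411. Each of these 2 positions reached the 10 counts needed in the libraries of 1 enzyme alone. Neither was called with the replicate number in the model. Position 32 had the highest mean share in DUS1L with 5-ClUrd (10.9%), followed by 119 (7.72%), 115 (6.78%), 52 (6.44%) and 125 (6.44%). Position 52 held 4 and 4 counts there and 0 in each of the 6 other libraries. In DUS1L cells, 1 position of 5.8S, position 32, reached the 10 counts needed, and it was not called, with edgeR's adjusted p at 0.219.

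How well 2 libraries of a group placed their counts alike sets how far single positions can be read. The overlap of the 5S profiles, the sum over positions of the smaller of the 2 shares, was 62.7% for the DUS2L 5-ClUrd libraries, 40.6% for untreated DUS2L and 34.5% for DUS1L with 5-ClUrd. For 5.8S it was 42.8%, 37.7% and 46.6%. Between a DUS1L 5-ClUrd library and a DUS2L library, the 5.8S overlap ran from 13.1% to 22.7%, below the overlap within any of these groups. Between untreated and 5-ClUrd libraries of DUS2L, the 5.8S overlap ran from 18.1% to 27.4%, below that within either group, whereas the 5S overlap ran from 39.4% to 46.0%, close to that of the untreated pair.

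The borders of 5.8S were counted in DUS2L. Position 6599 of the 45S reference, which is in ITS1 just before the mature 5′ end, held 7 and 11 counts in untreated DUS2L and 15 and 11 with 5-ClUrd, against 1 in all 4 DUS1L libraries together. Position 6766 in ITS2, beyond the mature 3′ end, held 7 and 3 counts in untreated DUS2L, 9 and 18 with 5-ClUrd, and 1 in DUS1L. Counts at these places lie outside the annotated 5.8S stretch, and they were not included in the 5.8S values. Whether they come from the precursor was not tested. Counts inside 5.8S cannot be assigned to the mature RNA or the precursor.

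The peak lists deposited by the authors, whose scores, the authors' own values, equal the summed site counts of the same library (1680 of 1680 peaks), are the same measurement in another form. On 5S, a peak at positions 54 to 56 was listed in untreated DUS2L library 2 (score 53) and in both DUS2L 5-ClUrd libraries (scores 84 and 60). DUS1L 5-ClUrd library 1 instead had peaks at 49 to 53 (score 73) and 75 to 78 (score 11). DUS2L 5-ClUrd library 2 also had a 5S peak at 81 to 82 (score 23). On 5.8S, peaks lay at 77 to 78 in untreated DUS2L library 2 (score 12) and at 124 to 127 in DUS2L 5-ClUrd library 2 (score 24). A peak across the 5′ border of 5.8S, at 6599 to 6601 of the 45S reference, was listed in both DUS2L 5-ClUrd libraries (scores 22 and 17). The other 4 libraries had no peak on either RNA.

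Counts on the strand opposite to each RNA give the background measured in the same files. For 5S they numbered 7 and 1 in untreated DUS1L, 22 and 9 in DUS1L with 5-ClUrd, 9 and 13 in untreated DUS2L, and 8 and 12 in DUS2L with 5-ClUrd. This was 3.08% to 6.74% of both strands' counts in DUS2L but 14.5% and 28.1% in DUS1L with 5-ClUrd, and in untreated DUS1L 8 antisense counts stood beside 11 sense counts. For 5.8S the antisense share was 1.43% and 3.25% in untreated DUS2L, 11.8% and 15.6% in DUS2L with 5-ClUrd, and 4.94% and 1.89% in DUS1L with 5-ClUrd. Over all RNAs it was 0.298% to 1.27% of a library. The other rRNA families also had high shares, so a high share is not particular to the small rRNAs. As group means, 18S, 28S and the 45S spacers stood at 27.6%, 29.6% and 53.7% in DUS1L with 5-ClUrd. They stood at 14.3%, 11.3% and 27.6% in DUS2L with 5-ClUrd, and at 1.38%, 0.955% and 12.3% in untreated DUS2L. The part of such counts in the sense values was not tested.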

How the data were processed

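The deposited site files, 1 per library, list whole-number counts by single nucleotide and strand, and the deposited peak files give intervals with a summed count as score. The submitters' processing notes name STAR 2.7.0f and hg38. Aligner settings, molecular identifiers and the peak caller: not given in the sources used here. Replicates differed beyond sampling noise, with a chi-square per degree of freedom of 54.9 to 285 over families.

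Sense counts were summed to 55 families. The test was edgeR 4.0.16's quasi-likelihood F test, run in R 4.3.3 on families or sites that reached 10 counts in the libraries of the fit. Libraries were scaled to total sense counts, and p-values were adjusted by Benjamini-Hochberg over all families or sites, with a threshold of 0.05. The effect of 5-ClUrd in an enzyme used the 4 libraries of that enzyme, and the other comparisons a fit of all 8. Shares were compared by exact two-sided permutation tests. Where a group held 0 counts at a site, 3 counts over the group replaced it for a lower bound. Python 3.11.15 was used with scipy 1.17.1, pandas 2.3.3, matplotlib 3.10.9 and numpy 2.4.6. The fits were also run on simulated counts whose spread was a fixed setting not taken from these libraries. This checks the code and not the error rates in these libraries.

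Named were both RNAs, for each RNA and group the 5 positions of highest mean share, every position past the threshold, the other rRNA families, the tRNA families as counts and median, and for each RNA the 3 families of most similar levels. The members, lists and rules were chosen with earlier results of these data known. Sequences of the 2 RNAs were not used here. The alternatives tried were minimum counts of 1 and 50, TMM factors, size factors and the Wald test of DESeq2 1.42.0, the replicate number as a block, both strands, all 8 libraries in one fit, each site counted once, and leaving out each library. Chosen only after seeing the data were scaling to rRNA counts, leaving out sites above 500 counts, leaving out the first 3 positions, the ratio of 5S to 5.8S, and the windows along the RNAs.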

Additional observations from a re-analysis of the deposited data

Results flagged for a closer look

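On the strand opposite to 5S, in data that the comparisons do not use, 2 positions held more counts over the 5-ClUrd libraries than over the untreated libraries of the same enzyme, relative to depth. Antisense position 43 held 10 counts in DUS2L with 5-ClUrd, as 4 and 6 (10.8 and 16.5 counts per 1000000 sense counts, CPM), and 2 and 0 in untreated DUS2L (15.4 and 0 CPM). These groups overlapped, and the direction rests on untreated library 2. Antisense position 94 held 16 counts in DUS1L with 5-ClUrd, as 15 and 1 (18.2 and 1.84 CPM), and none in untreated DUS1L, where 0 counts over both libraries allow up to 19.8 CPM, so no difference can be read at this depth. Of these 16 counts, 15 came from library 1, in which the authors' peak list has an antisense 5S peak at positions 89 to 94 (score 17). The differences were not tested.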

How the results depend on the processing

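Of 449 alternative values, 343 were counted as unchanged. Changes kept their direction and, where a test gave an adjusted p, their side of the threshold. Shares had no such threshold and kept their direction only. Numbers of called positions that moved little, such as 7 or 12 in place of 10, were also counted as unchanged. For the 2 families, their shares and their numbers of called positions, the others are given here as log2 changes (5-ClUrd against untreated unless another comparison is named), with the adjusted p where a call changed (edgeR's, or DESeq2's for its Wald test). Of all alternatives, 47 kept their direction but lost a call, most of them at single positions. Calls lost together with a change of direction were counted as reversed instead. In DUS1L, 5S stood at -0.43 with TMM factors, -0.77 with DESeq2's size factors, -0.052 with both strands summed and -0.10 without sites above 500 counts, and 5.8S at -0.42, -0.71 and, without those sites, -0.15. In DUS2L, 5S passed with TMM factors (-1.42, adjusted p 0.00299), DESeq2's size factors (-1.52, 0.00188) and DESeq2's Wald test (-1.52, 0.000766). The difference of the 5-ClUrd effects passed for 5.8S with the same 3 settings (-3.48, -3.02 and -3.00, adjusted p 0.0335, 0.0465 and 0.0260). Scaled to rRNA counts, which removes the change shared by all rRNA by construction, the values were 1.54 for 5S and 0.083 for 5.8S in DUS2L, 0.68 for the 5S difference of effects, 1.18 and -1.28 for 5S and 5.8S between treated enzymes, and 0.50 and -0.35 between untreated enzymes.

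The numbers of called positions moved as follows. In DUS2L, 5S had 0 in place of 1 with TMM factors, a minimum of 1 count, a minimum of 50 counts and the replicate block, and 5.8S had 0 in place of 2 with TMM factors and a minimum of 1 count, and 1 with the replicate block. Between treated enzymes, 5S had 4 in place of 10 with a minimum of 50 counts, and 5.8S had 1 in place of 2 with TMM factors or a minimum of 1 count and 0 with the replicate block. In DUS1L, 5S had 2 in place of 0 with the replicate block. With each site counted once, the 5S difference in the 5′ segment in DUS2L was -0.0109 points.

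Leaving out each library in turn gave these ranges, in which a library left alone in its group borrows the spread of the other groups, and values against the library with 0 counts of 5S (8.54, -8.89 and 11.8) have no size. In DUS1L, 5S ran from -0.53 to 8.54 and 5.8S from -0.52 to 0.96. In DUS2L they ran from -0.997 to -0.48 and from -2.92 to -1.46. The differences of effects ran from -8.89 to -0.092 for 5S and from -3.66 to -1.49 for 5.8S, which passed without DUS2L 5-ClUrd library 2. Between treated enzymes the ranges were 2.25 to 4.13 for 5S and -0.22 to 1.23 for 5.8S, the higher value passing without DUS2L 5-ClUrd library 1 and the lower arising without library 2. Between untreated enzymes they were 3.97 to 11.8 and 2.17 to 3.65. Called 5S positions ran from 0 to 2 in DUS1L, 0 to 1 in DUS2L and 2 to 12 between treated enzymes, and called 5.8S positions from 0 to 1 in DUS2L and 0 to 2 between treated enzymes. In points, the 5S share of the 5′ segment ran from -16.5 to 11.9 in DUS1L and that of the 3′ segment from -2.74 to 3.45 in DUS2L. The 5.8S share of rRNA ran from -1.77 to 0.638 in DUS1L and from -0.0965 to 0.136 in DUS2L, and that of its 5′ segment from -8.98 to 33.9 in DUS1L. The log2 ratio of 5S to 5.8S ran from -1.83 to 0.10 in DUS1L. The cause of these changes was not tested.

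Libraries with the same number deviated together at r = 0.0887 in DUS1L and 0.264 in DUS2L over 55 families, and with 2 pairs the numbers are taken as names only. The replicate block gave 1.17 for 5S and 0.54 for 5.8S in DUS1L and -0.74 and -2.11 in DUS2L, and it changed no call of 5S or 5.8S as a family. Depth limits the DUS1L side most, where the untreated libraries held 11 counts of 5S and 8 of 5.8S.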
